A study of Homo sapiens with 27 samples.

Results

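*CEMIP* and 7 further genes that build, cut or bind hyaluronan were followed in uveal melanoma (UM) cells under FAK inhibition: *CEMIP2*, *HAS2*, *HAS3*, *HYAL1*, *HYAL2*, *HYAL3* and *CD44*. The genes were taken by symbol, 8 of the 61533 genes in the count table. *CEMIP* was chosen by its fold changes between FAKi and DMSO, which were positive on every day, so those differences are given here as a description without a test. The other 7 were taken by name for their part in hyaluronan turnover. RNA sequencing of poly(A) RNA was made from 92.1 cells, a line grown from a human UM that carries mutant *GNAQ*. VS-4718, a FAK inhibitor (FAKi), was given at 100 nM and compared with its solvent DMSO, with medium and agent renewed every 72 h. There were 9 groups of 3 libraries. Day 0 had DMSO alone, and days 3, 7, 14 and 21 each had both arms. All groups share a single cell line. The study's methods describe replicate plating within each condition and biological repeats of the whole experiment, and the labels do not say which plating or repeat a library came from, so the p-values measure the spread between these libraries.

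Hyaluronan is a long, unbranched sugar polymer of the extracellular matrix. Hyaluronan synthases in the plasma membrane spin it out of UDP-sugars, and it is bound at the cell surface by CD44, the main hyaluronan receptor. CEMIP takes part in its breakdown, and the related cell surface protein CEMIP2 is reported to do so. The hyaluronidases of the HYAL family cut it in lysosomes or at the cell surface. Long chains and short fragments are known to act differently on cell adhesion and movement, and a hyaluronan coat is common around melanoma cells.

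The libraries held 12161994 to 43651551 counts on genes. Levels are given in CPM, counts scaled to library size with TMM factors over all 27 libraries. The melanocyte genes *MITF*, *SOX10*, *PMEL*, *MLANA*, *TYR*, *TYRP1* and *DCT* were all present, the lowest being *DCT* at 2.49 CPM in its lowest library, with a summed level of 9438 to 14950 CPM. Epithelial and endothelial markers summed to at most 2.25 and 0.885 CPM. Of the leukocyte markers, *PTPRC*, *CSF1R* and *CD3E* were near 0, and the sum was carried by *CD68*, a lysosomal protein. That sum was lower with FAKi at day 21, at 23.4 to 26.6 CPM against 59.1 to 70.9 CPM in DMSO, and at day 14, at 40.6 to 42.1 against 45.1 to 57.6 CPM. At day 7 it was also lower with FAKi, at 41.6 to 83.1 against 89.3 to 101.9 CPM. The fibroblast markers *COL1A2* and *DCN* were near 0, while *COL1A1* and *LUM* averaged 5.73 and 5.08 CPM. Other marker sums also stood apart at days 14 and 21. At day 14 the fibroblast sum with FAKi was 13.0 to 13.9 CPM and the melanocyte sum 12250 to 12800 CPM, against 9.02 to 12.4 and 9438 to 10080 CPM in DMSO. At day 21 the melanocyte sum was again higher with FAKi, at 14890 to 14950 against 11730 to 13970 CPM. The fibroblast sum was then lower, at 6.03 to 7.01 against 7.07 to 10.7 CPM. The part of these shifts in the results of days 3, 7, 14 and 21 was not tested. Mitochondrial genes took 5.49% to 26.97% of the counts. Some libraries stood apart from their group in a distance over 15523 genes. FAKi day 7 replicate 1 was nearest to FAKi day 14 replicate 1, at 0.175, the smallest distance in the series, and lay 0.657 on average from its own group. DMSO day 3 replicate 1 was nearest to DMSO day 0 replicate 3, at 0.236, while DMSO day 3 replicates 2 and 3 were nearest to DMSO day 21 replicate 3. Where leaving out one of them moved a value given here by much, the value without it is given too. DMSO day 21 replicate 3 also stood apart. It was nearest to DMSO day 3 replicate 3, at 0.285, and lay 0.658 on average from its own group, the largest such distance. Its mitochondrial share was 9.75%, against 5.49% in each other DMSO library of day 21. The *CEMIP2* values of day 21 are given without it too. In bulk RNA, fewer cells of a kind and less RNA per cell cannot be told apart.

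*CEMIP* encodes a secreted hyaluronan-binding protein that is needed for hyaluronan breakdown in several cell types. The gene (ENSG00000103888.17) lies on the plus strand of chr15:80779370-80951771 (GRCh38), and 7294 bases of exon were counted. Of its exon bases, 2.76% lie opposite exons of *MESD* and ENSG00000259546. In DMSO *MESD* averaged 124 ± 15.1 CPM on day 14 against 84.6 ± 6.38 CPM on day 0 (SD, n = 3). The log2 difference was 0.55 (adjusted p = 0.00113 by edgeR). The *MESD* log2 fold changes of FAKi over DMSO at days 3, 7, 14 and 21 were 0.24, 0.11, -0.10 and -0.23. Their adjusted p were 0.348, 0.879, 0.646 and 0.23. The part of *MESD* reads in the *CEMIP* counts was not tested. The start of *CEMIP* is preceded by a GC-rich stretch. The 250 bases before the RefSeq start of *CEMIP* (GRCh38.p14) are shown beside those of its relative *CEMIP2*, because both were measured here and only the first holds a TATA box among the letters searched, in capitals 30 bases before the start.
*CEMIP*, chr15:80779120-80779369, plus strand: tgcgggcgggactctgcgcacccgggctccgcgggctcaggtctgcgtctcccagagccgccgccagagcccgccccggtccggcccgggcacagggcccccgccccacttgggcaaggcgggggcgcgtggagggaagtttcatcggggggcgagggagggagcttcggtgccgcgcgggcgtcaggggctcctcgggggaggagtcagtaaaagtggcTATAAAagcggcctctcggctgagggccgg
*CEMIP2*, chr9:71768514-71768763, minus strand: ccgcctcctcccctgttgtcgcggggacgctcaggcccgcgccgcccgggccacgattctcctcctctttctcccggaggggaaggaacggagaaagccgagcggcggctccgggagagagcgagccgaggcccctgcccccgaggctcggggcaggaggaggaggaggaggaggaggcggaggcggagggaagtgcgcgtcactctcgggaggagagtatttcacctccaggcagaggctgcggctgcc
The letters TATAAA, searched on both strands, were present in 10.7% of 35114 promoter windows of this length. The *CEMIP* window was 74.4% G and C with 28 CG pairs, and the *CEMIP2* window 71.6% with 25, against medians of 58% and 11.0 over all windows. The AP-1 letters TGANTCA, present in 6.57% of all windows, were in none of the windows of the 7 genes that the table held.

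*CEMIP* RNA was low in DMSO and higher with FAKi at each time point. In both arms it was highest at day 14 and low again at day 21. The whole range was 3 to 234 counts per library, so counting noise was large in the DMSO libraries. At day 0 the 3 libraries were at 0.557, 0.245 and 0.861 CPM. At day 3 the libraries were at 0.712, 0.621 and 0.402 CPM in DMSO and at 1.87, 1.78 and 2.32 CPM with FAKi. The lowest FAKi library was thus above the highest DMSO library. At day 7 the DMSO libraries were at 0.476, 0.549 and 1.06 CPM and the FAKi libraries at 6.70, 2.10 and 1.42 CPM. Replicate 1, the library that resembled FAKi at day 14, was far above the other two. At day 14 DMSO had 2.05, 2.00 and 3.92 CPM and FAKi 7.04, 5.64 and 6.51 CPM. At day 21 DMSO had 0.401, 0.341 and 0.556 CPM and FAKi 1.12, 0.688 and 1.66 CPM. On each of the 4 days FAKi lay wholly above DMSO, as it did for 15.1%, 8.25%, 15.1% and 16.5% of all genes tested on the single days. The share of genes with this pattern on all 4 days together was not computed.

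**Figure D1:**
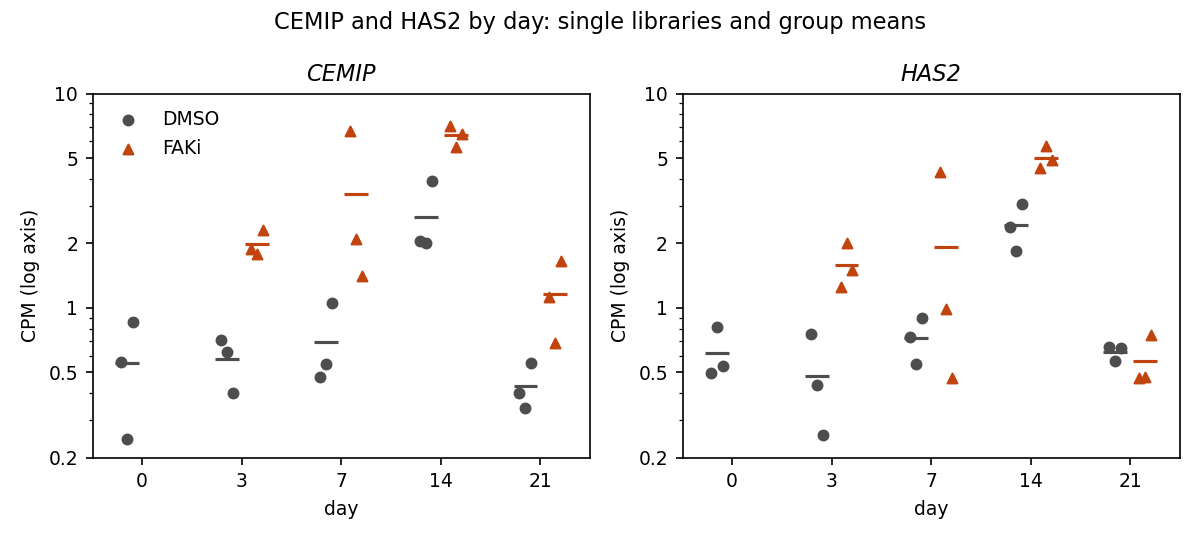
CPM of *CEMIP* (left) and *HAS2* (right) on a log axis against the day of culture, in DMSO (circles) and FAKi (triangles), with each library as a point and the group mean of 3 as a line. *CEMIP* was higher with FAKi on all 4 days and peaked at day 14 in both arms, and *HAS2* had the same peak but overlapping groups at days 7 and 21.

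The *CEMIP* log2 fold change of FAKi over DMSO was 1.77 (SE 0.339) after 3 days, 2.26 (SE 0.599) after 7, 1.26 (SE 0.28) after 14 and 1.48 (SE 0.451) after 21. The mean over the 4 days was 1.69 (SE 0.236), or 3.23-fold. Without FAKi day 7 replicate 1 the day 7 difference was 1.31 (SE 0.385), and without DMSO day 3 replicate 1 the day 3 difference was 1.97 (SE 0.375). These values chose the gene. The DMSO level itself varied by as much. Its log2 difference from day 0 was 2.19 (SE 0.466) at day 14 and -0.40 (SE 0.524) at day 21. By group mean the order was FAKi day 14 (6.39 ± 0.707 CPM, SD, n = 3), FAKi day 7 (3.40 ± 2.87), DMSO day 14 (2.65 ± 1.09), FAKi day 3 (1.99 ± 0.290), FAKi day 21 (1.16 ± 0.489), DMSO day 7 (0.693 ± 0.316), DMSO day 3 (0.578 ± 0.159), DMSO day 0 (0.554 ± 0.308) and DMSO day 21 (0.432 ± 0.111). Among neighbours in this order, only FAKi day 3 and FAKi day 21 did not overlap. The highest group mean was 14.8-fold the lowest.

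**Figure D2:**
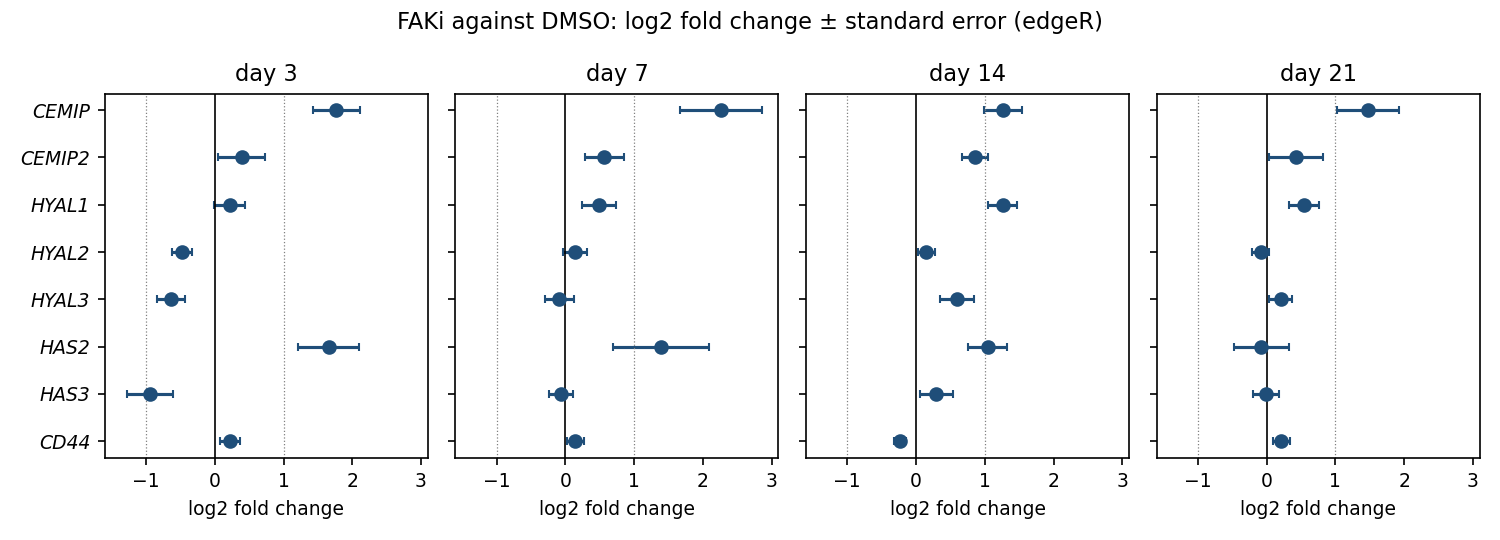
Log2 fold change of FAKi over DMSO with its standard error for the 8 genes on each day, from the edgeR fit of the 6 libraries of that day; dotted lines mark a change of 1 in either direction. *CEMIP* lay between 1.26 and 2.26 on all days, *HAS2* was above 1 until day 14 and near 0 at day 21, and *HYAL1* passed 1 at day 14.

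For the other 7 genes the question was whether they changed with FAKi. A gene was called at a Benjamini-Hochberg adjusted p of at most 0.05 over all genes tested and an absolute log2 fold change above 1. With edgeR's quasi-likelihood test, 0 of the 7 were called at day 3 or day 7, 2 were called at day 14, *HAS2* and *HYAL1*, both higher, and 0 at day 21. Over all genes the share called was 0% at day 3, 0.0269% at day 7, 1.66% at day 14 (0.614% higher) and 5.28% at day 21. In these comparisons 4, 0, 5 and 1 of the 7 had an unadjusted p under 0.05, against 23.8%, 8.77%, 24.6% and 32.6% of all genes. DESeq2 called 1 at day 3, *HAS2*, and 0 at days 7 and 21. The 2 groups did not overlap for 4, 2, 5 and 2 of the 7 genes, against 30.9%, 16.7%, 28.9% and 35.4% of all genes. The median log2 fold change of the 7 was 0.22, 0.15, 0.59 and 0.20 on the 4 days, and over all genes it was -0.02, 0.01, -0.01 and 0.01.

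*HAS2* (ENSG00000170961.7) encodes the synthase that makes long hyaluronan chains in most tissues. Its group means followed a course much like that of *CEMIP*, with the highest level under FAKi at day 14. At day 0 the libraries were at 0.495, 0.815 and 0.538 CPM. At day 3 DMSO had 0.757, 0.438 and 0.256 CPM and FAKi 1.25, 2.00 and 1.501 CPM. All FAKi libraries were above all DMSO libraries. At day 7 DMSO had 0.732, 0.549 and 0.895 CPM and FAKi 4.32, 0.988 and 0.472 CPM. Replicate 1 again carried the FAKi mean, and the groups overlapped. At day 14 DMSO had 2.39, 1.84 and 3.07 CPM and FAKi 4.48, 5.71 and 4.90 CPM, again without overlap. At day 21 DMSO had 0.658, 0.568 and 0.648 CPM and FAKi 0.473, 0.476 and 0.745 CPM, and the groups overlapped.

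At day 14 *HAS2* was 2.06-fold higher with FAKi than with DMSO, a log2 fold change of 1.04 (SE 0.277, adjusted p = 0.0158 by edgeR). This call was lost without DMSO day 14 replicate 2 (0.87, adjusted p = 0.0615), without FAKi day 14 replicate 2 (0.94, adjusted p = 0.117) and with all 27 libraries in 1 fit (1.05, adjusted p = 0.156). At day 3 the *HAS2* log2 fold change was larger, 1.66 (SE 0.438), and missed the threshold with an adjusted p of 0.0984. Without DMSO day 3 replicate 1 it was 2.17, with an adjusted p of 0.00245. At day 7 it was 1.39 (SE 0.694, adjusted p = 0.615), and 0.03 without FAKi day 7 replicate 1. At day 21 it was -0.08 (SE 0.403, adjusted p = 0.91). Whether the FAKi effect itself changed was tested as an interaction. The change of the *HAS2* effect was -1.75 (SE 0.584) between days 3 and 21 and -1.14 (SE 0.464) between days 14 and 21, with edgeR adjusted p of 0.125 and 0.121, so neither was called. Without DMSO day 3 replicate 1 the change between days 3 and 21 was -2.25 and was called (adjusted p = 0.0304). The mean *HAS2* effect over the 4 days was 1.00 (fitted 0.9975, SE 0.259, adjusted p = 0.0105), just under the fold threshold. It ranged from 0.655, without FAKi day 7 replicate 1 (adjusted p = 0.0258), to 1.13, without DMSO day 3 replicate 1 (adjusted p = 0.00322, called), and stayed uncalled in 11 of 24 fits that left out a library. Of the counted exon bases of *HAS2*, 5.92% lie opposite the antisense gene *HAS2-AS1*. *HAS2-AS1* averaged 1.09 ± 0.0851 CPM under FAKi against 0.505 ± 0.0853 CPM under DMSO on day 3 (SD, n = 3). On day 14 the averages were 0.89 ± 0.665 against 0.222 ± 0.19 CPM, and the groups overlapped (log2 fold change 1.98, adjusted p = 0.19). The antisense gene did not follow *HAS2* throughout. Its log2 fold change was -0.29 at day 7 and its difference between DMSO at day 14 and day 0 was -1.25, neither called, where those of *HAS2* were 1.39 and 2.00. The part of antisense reads in the *HAS2* counts was not tested.

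Without inhibitor, *HAS2* was also higher at day 14 than at day 0, by 2.00 on the log2 scale (SE 0.409, adjusted p = 0.00199 by edgeR), and the groups did not overlap. It was the only one of the 7 called in that comparison, in which 6.07% of all genes were called. At days 3, 7 and 21 its log2 difference from day 0 was -0.30, 0.29 and 0.04, none called. Mitochondrial genes took 21.95% to 26.97% of the counts in DMSO at day 14, and 16.98% to 18.81% at day 0. The 4 comparisons with day 0 share the same day 0 libraries.

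**Figure D3:**
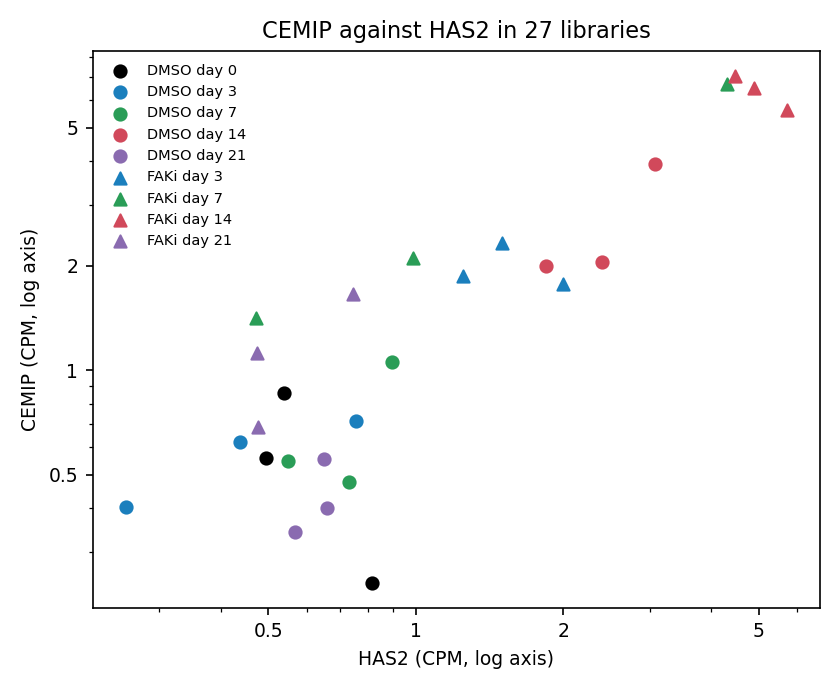
CPM of *CEMIP* against CPM of *HAS2* in each of the 27 libraries, both on log axes, with color for the day and shape for the treatment (circles DMSO, triangles FAKi). The 3 FAKi day 14 libraries and FAKi day 7 replicate 1 sit together at the upper right, with *CEMIP* at 5.64 CPM or more.

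*HAS2* and *CEMIP* levels varied together across libraries. On log2 CPM with a prior count of 2, Pearson's r was 0.879 and Spearman's rho 0.75 over the 27 libraries, and *HAS2* ranked 58 among 21991 genes. On the 9 group means r was 0.924, within groups 0.666, and without the day 14 libraries 0.75. The points share treatment, day and scaling, and both genes had few counts, so no p is given. For the other members r with *CEMIP* was 0.693 for *CD44*, 0.664 for *CEMIP2*, 0.576 for *HYAL1*, -0.0732 for *HYAL2*, -0.187 for *HYAL3* and -0.357 for *HAS3*. The middle 95% of all genes ran from -0.764 to 0.766. Within groups r was -0.0139 for *CD44*, 0.423 for *CEMIP2*, 0.287 for *HYAL1*, 0.276 for *HYAL2*, 0.296 for *HYAL3* and -0.25 for *HAS3*. Among the 5 genes most like *CEMIP* were *IL16* (r = 0.924), a cytokine, *ISM1* (0.924), a secreted protein, *P2RX7* (0.923), an ATP-gated ion channel, and *PRUNE2* (0.918). *ISM1*, for instance, averaged 20.7 ± 1.69 CPM under FAKi against 7.27 ± 1.22 CPM under DMSO on day 14 (SD, n = 3). On day 21 the averages were 3.44 ± 0.453 against 2.28 ± 0.565 CPM. By Spearman's rho only *P2RX7* stayed among the first 5.

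*HAS3* (ENSG00000103044.11), a synthase that makes shorter chains, did not share this course. By group mean it was highest at day 21 in both arms, when *CEMIP* and *HAS2* were low. The DMSO libraries started at 6.81, 7.499 and 5.43 CPM and on day 21 were at 20.2, 14.7 and 13.2 CPM, without overlap. The log2 difference was 1.29 (SE 0.21, adjusted p = 0.00338 by edgeR), a call that held in all 6 fits that left out a library. The share of mitochondrial counts moved with it, from 16.98% to 18.81% in the day 0 libraries to 5.49% to 9.75% in those of day 21, and without mitochondrial genes the difference was 1.27 (adjusted p = 0.00345). In that comparison 2 of the 7 genes were called, *HAS3* higher and *CEMIP2* lower, against 23.3% of all genes. With FAKi at day 21 *HAS3* was at 16.6, 16.4 and 13.3 CPM, inside the DMSO range, with a log2 fold change of -0.01 (SE 0.187, adjusted p = 0.981). At day 3 DMSO had 5.59, 12.7 and 15.8 CPM and FAKi 6.25, 5.85 and 5.32 CPM. DMSO replicate 1, the library that resembled day 0, was far below its 2 fellow libraries and lay within the FAKi range. The day 3 log2 fold change was -0.95 (SE 0.335, adjusted p = 0.142), and without DMSO day 3 replicate 1 it was -1.27 with an adjusted p of 0.000281. That call set FAKi libraries with 16.8% to 18.7% mitochondrial counts against DMSO replicates 2 and 3 with 9.59% and 8.61%, while DMSO replicate 1 had 18.11%. The part of this share in the *HAS3* values was not tested.

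The 250 bases before the RefSeq start of *HAS3* (GRCh38.p14) are shown for contrast with *CEMIP*, since they hold no TATAAA but the E-box CACGTG, in capitals 66 bases before the start, which 6.35% of all windows hold on either strand. The window lies inside the span of the counted transcript, chr16:69106257-69118719, which starts further upstream.
*HAS3*, chr16:69107290-69107539, plus strand: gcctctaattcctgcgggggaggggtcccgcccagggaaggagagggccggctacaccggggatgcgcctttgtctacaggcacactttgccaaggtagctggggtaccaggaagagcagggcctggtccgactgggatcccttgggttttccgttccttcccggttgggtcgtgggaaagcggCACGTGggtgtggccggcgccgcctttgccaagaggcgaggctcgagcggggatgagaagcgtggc
The counted *HAS3* transcript is short, with 1156 bases, and 31.4% of its exon bases lie opposite *CHTF8* and *DERPC*. *CHTF8* averaged 61.4 ± 3.34 CPM under DMSO on day 0 against 79.8 ± 10.9 CPM on day 21 (SD, n = 3), a log2 difference of 0.37 (adjusted p = 0.0504 by edgeR). At day 3 the log2 fold change of *CHTF8* with FAKi was -0.37 (adjusted p = 0.229). *DERPC* averaged 57.8 ± 3.23 CPM under DMSO on day 0 against 79.6 ± 10.6 CPM on day 21. The log2 difference was 0.46 (adjusted p = 0.0246). For *DERPC* the log2 fold change with FAKi at day 3 was -0.41 (adjusted p = 0.2). Whether counting used strand is not given in the sources used here, and the part of *CHTF8* and *DERPC* reads in the *HAS3* values was not tested.

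**Figure D4:**
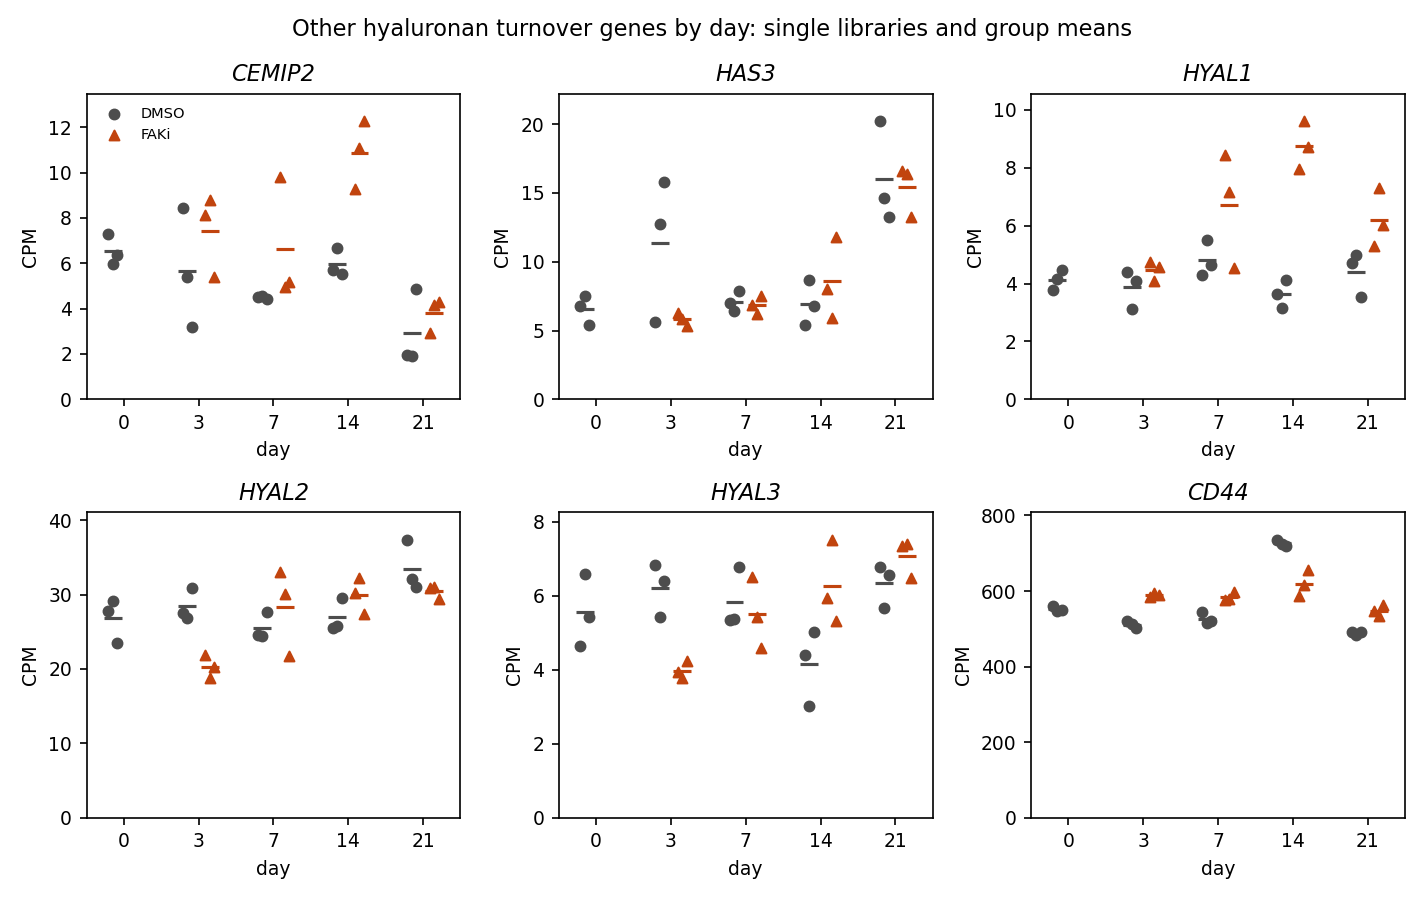
CPM of *CEMIP2*, *HAS3*, *HYAL1*, *HYAL2*, *HYAL3* and *CD44* against the day of culture, on linear axes from 0, in DMSO (circles) and FAKi (triangles), with the group mean of 3 as a line. *HYAL1* separated at day 14, with 7.94 to 9.60 CPM in FAKi and 3.14 to 4.11 CPM in DMSO, *HAS3* was highest at day 21 in both arms, and *CD44* in DMSO was highest at day 14.

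*CEMIP2* (ENSG00000135048.14, minus strand, chr9:71683366-71768513) encodes a membrane protein related to CEMIP that is reported to cut hyaluronan at the cell surface. It lay above DMSO at every time point by group mean, by 1.31-fold, 1.48-fold, 1.83-fold and 1.30-fold at days 3, 7, 14 and 21. At day 14 DMSO had 5.70, 6.67 and 5.51 CPM and FAKi 9.29, 11.1 and 12.3 CPM. The groups did not overlap, and the log2 fold change was 0.86 (SE 0.187, adjusted p = 0.00363 by edgeR), under the fold threshold. On the other days the log2 fold changes of *CEMIP2* were 0.39, 0.57 and 0.43, with edgeR adjusted p of 0.496, 0.612 and 0.475. Single libraries moved these values. The day 7 value was 0.17 without FAKi day 7 replicate 1, at 9.82 CPM against 4.94 and 5.19 CPM in its group. The day 3 value was 0.82 without DMSO day 3 replicate 1 (adjusted p = 0.0327) and 0.11 without DMSO day 3 replicate 3. The mean *CEMIP2* effect over the 4 days was 0.56 (SE 0.169, adjusted p = 0.0259), and 0.46 without FAKi day 7 replicate 1 (adjusted p = 0.0591). In DMSO *CEMIP2* fell by 1.18 on the log2 scale from day 0 to day 21 (SE 0.363, adjusted p = 0.0294). The libraries were at 7.30, 5.95 and 6.35 CPM at day 0 and at 1.95, 1.93 and 4.86 CPM at day 21, where replicate 3 was well above the others. The call was lost in 5 of 6 fits that left out a library, with adjusted p from 0.064 to 0.102, and held without DMSO day 21 replicate 3, at -1.77. Without that library FAKi at day 21 was called higher than DMSO, with a log2 fold change of 1.04 (adjusted p = 0.00294).

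*HYAL1* (ENSG00000114378.17, minus strand, chr3:50299890-50303572) encodes the lysosomal hyaluronidase that takes chains down to small pieces. It had the smallest adjusted p of the 7 genes at day 14. DMSO had 3.65, 3.14 and 4.11 CPM and FAKi 7.94, 9.60 and 8.70 CPM. The lowest FAKi library was well above the highest DMSO library, and the difference was 2.4-fold, a log2 fold change of 1.26 (SE 0.215, adjusted p = 0.000423 by edgeR). The call held in all 6 fits that left out a library, with values between 1.16 and 1.36, and without mitochondrial genes (1.26, adjusted p = 0.000361). At day 3 DMSO had 4.41, 3.103 and 4.096 CPM and FAKi 4.76, 4.07 and 4.57 CPM, which overlapped, and the log2 fold change was 0.22 (adjusted p = 0.578). At days 7 and 21 it was 0.49 and 0.54, with adjusted p of 0.628 and 0.125, and without FAKi day 7 replicate 1 the day 7 value was 0.30. The groups overlapped at day 7 and not at day 21, where DMSO reached 4.999 CPM and FAKi began at 5.29 CPM. *HYAL1* had a mean effect over the 4 days of 0.62 (SE 0.112, adjusted p = 0.000552), 1.54-fold. In DMSO its log2 difference from day 0 lay between -0.19 and 0.19 on the 4 later time points, none called.

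The 250 bases before the RefSeq start of *HYAL1* (GRCh38.p14) are shown because of this day 14 difference. They are all in lower case, since the TATA box, AP-1 and E-box letters are not among them on either strand. The TEAD letters CATTCC, held by 11.9% of all windows, are absent too. The SP1 letters GGGCGG, held by 42.6% of all windows, lie 71 and 59 bases before the start and are not marked.
*HYAL1*, chr3:50303575-50303824, minus strand: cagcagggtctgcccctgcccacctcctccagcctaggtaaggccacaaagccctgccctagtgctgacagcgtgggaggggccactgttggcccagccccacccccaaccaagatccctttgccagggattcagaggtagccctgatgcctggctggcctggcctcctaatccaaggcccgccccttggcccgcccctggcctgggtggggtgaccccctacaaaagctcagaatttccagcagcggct
With 4 CG pairs this window had fewer than that of *CEMIP*, at a G and C content of 65.6%.

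*HYAL3* (ENSG00000186792.17, chr3:50292832-50299405) and *HYAL2* (ENSG00000068001.14, chr3:50317790-50322782) lie beside *HYAL1*, on the same strand. *HYAL2* encodes a hyaluronidase anchored at the cell surface, and the activity of the HYAL3 protein is less clear. At day 3 *HYAL3* was at 6.83, 5.44 and 6.4 CPM in DMSO and at 3.94, 3.78 and 4.23 CPM with FAKi. The FAKi libraries were all below DMSO, and the log2 fold change was -0.63 (SE 0.206, adjusted p = 0.124 by edgeR). At day 14 DMSO had 4.41, 3.02 and 5.03 CPM and FAKi 5.95, 7.52 and 5.33 CPM. Here all FAKi libraries were above DMSO, and the log2 fold change was 0.59 (SE 0.248, adjusted p = 0.135). Between days 3 and 14 the FAKi effect moved by 1.23 (SE 0.333, adjusted p = 0.0307) for *HYAL3*, 1.05 (SE 0.307, adjusted p = 0.0424) for *HYAL1* and 0.63 (SE 0.188, adjusted p = 0.0471) for *HYAL2*, the last under the fold threshold. This comparison was added after the data were seen, and 4.33% of all genes were called in it. When each of the 12 libraries was left out in turn, the *HYAL1* call was kept in 2 fits and the *HYAL3* call in 6. The *HYAL1* call was also lost with no count filter (adjusted p = 0.0592). The change was larger still for *HAS3*, at 1.25 (SE 0.449), which was not called (adjusted p = 0.0905). It was called by DESeq2 (adjusted p = 0.046), without the count filter (0.00312), in the joint fit of all 27 libraries (0.0393) and without DMSO day 3 replicate 1 (1.58, adjusted p = 0.00142). For *HYAL2* the day 3 levels were 27.6, 26.9 and 30.9 CPM in DMSO and 21.9, 18.7 and 20.3 CPM with FAKi. They did not overlap, and the log2 fold change was -0.48 (SE 0.149, adjusted p = 0.119). On the later days it was 0.15, 0.15 and -0.09, none called. Of the exon bases of *HYAL2*, 12.6% are shared with *TUSC2* on the same strand, and 12.5% of those of *HYAL3* with *IFRD2* and *NAA80*, so their reads could be split. *TUSC2* and *IFRD2* had log2 fold changes of -0.51 and -0.48 at day 3 (adjusted p = 0.158 for both), and *NAA80* 0.80 at day 14 (adjusted p = 0.00293). The part of these genes' reads in the *HYAL2* and *HYAL3* values was not tested.

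*CD44* (ENSG00000026508.21, plus strand, chr11:35139171-35232402) had the highest level of the 8, at 482.6 to 735.6 CPM, and the smallest ratio of highest to lowest group mean, 1.48. At day 3 DMSO had 521.3, 511.9 and 501.0 CPM and FAKi 583.5, 595.7 and 588.9 CPM. At day 7 DMSO had 545.2, 515.1 and 521.6 CPM and FAKi 577.3, 578.6 and 598.8 CPM. FAKi was above DMSO without overlap on both days. At day 14 the order turned: DMSO had 735.6, 723.2 and 718.7 CPM and FAKi 587.7, 617.0 and 655.2 CPM. At day 21 DMSO had 491.5, 482.6 and 492.5 CPM and FAKi 546.6, 532.7 and 563.8 CPM, again above DMSO without overlap. The log2 fold changes were 0.22, 0.14, -0.23 and 0.21, with edgeR adjusted p of 0.384, 0.771, 0.0976 and 0.268, so none was called. The change of the effect was -0.44 from day 3 to day 14 (adjusted p = 0.0904) and 0.42 from day 14 to day 21 (adjusted p = 0.0733). In DMSO *CD44* was 0.39 higher on the log2 scale at day 14 than at day 0 (SE 0.0832, adjusted p = 0.00259), under the fold threshold. The FAKi libraries of the 4 days all lay between 532.7 and 655.2 CPM.

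Levels of different genes can be compared per length of the counted transcript. At day 0, in CPM per kilobase, *CD44* was at 102.5 ± 1.34, *HYAL2* at 6.62 ± 0.714, *HAS3* at 5.69 ± 0.910, *HYAL3* at 2.97 ± 0.527, *HYAL1* at 1.65 ± 0.138, *CEMIP2* at 1.07 ± 0.114, *HAS2* at 0.146 ± 0.0410 and *CEMIP* at 0.0760 ± 0.0422 (SD, n = 3). *CEMIP* and *HAS2* were thus the lowest of the set, and they stayed lowest in all 9 groups. *HAS3* per kilobase was 33.7 to 50.3 times *HAS2* at day 0, 3.80 to 8.82 times with FAKi at day 14, and 65.1 to 128 times with FAKi at day 21. *CEMIP2* per kilobase was 8.81 to 29.1 times *CEMIP* at day 0 and 1.58 to 2.35 times with FAKi at day 14. The lowest ratios of both pairs were in FAKi day 14 libraries.

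Averaged over the 4 days, 0 of the 7 genes were called by edgeR, against 1.89% of all genes (0.878% higher). There were 3 with an unadjusted p under 0.05, against 30.3%, and DESeq2 also called 0. For the change of the effect between days 3 and 21 the count was 0, against 2.22% of all genes, with 3 at an unadjusted p under 0.05, against 19.1%, and 0 by DESeq2. For the change between days 14 and 21 it was 0, against 7.43%, with 3 at an unadjusted p under 0.05, against 27.6%, and 0 by DESeq2.

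Time in culture without inhibitor was read from DMSO against day 0. At day 3, 0 of the 7 genes were called by edgeR or DESeq2, against 0% of all genes. None had an unadjusted p under 0.05 (9.86% of all genes), and 1 did not overlap (16.8%, or 9.79% higher). At day 7, 0 were called by either tool, against 0.699%, with 1 at an unadjusted p under 0.05 (16.9%) and 2 without overlap (21.2%, or 11.5% higher). That gene was *CEMIP2*, at -0.56 on the log2 scale (adjusted p = 0.0217). At day 14, 1 was called higher, *HAS2* (3.46% of all genes higher, 2.62% lower), with 2 at an unadjusted p under 0.05 (38.4%) and 2 without overlap (43.2%, or 21.1% higher). At day 21, *HAS3* was called higher and *CEMIP2* lower (13.2% and 10% of all genes), with 2 at an unadjusted p under 0.05 (53.8%) and 4 without overlap (58.1%, or 29.8% higher). None of these shares of members was set against the background by a test.

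The wider hyaluronan pathway was read from 51 genes: synthases, enzymes that make the UDP-sugar precursors, degrading enzymes, receptors, binding proteins, and the linkers EZR, RDX and MSN that tie CD44 to actin. Besides *CEMIP*, the count filter kept 34, 33, 35 and 34 of the other 50 on the 4 days. Of these 0, 0, 3 and 2 were called higher and 0, 0, 0 and 1 lower. The shares over all genes were 0.614% higher and 1.04% lower for day 14, and 2.58% and 2.71% for day 21. Without *CEMIP*, the median log2 fold changes of the list were 0.07, 0.14, 0.29 and 0.06. All 7 precursor enzymes were tested, and none was called with FAKi on any day. *UGDH*, which makes UDP-glucuronic acid, had a log2 fold change of 0.50 at day 14 (adjusted p = 0.043 by edgeR). *UAP1* was at 0.46 on that day (adjusted p = 0.0494). Only 2 of the 7 were positive at day 14, and 2 at day 21. *GFPT2* was at -0.55, -0.84, -0.86 and -0.72 on the 4 days, with adjusted p of 0.206, 0.411, 0.142 and 0.0914. *UGP2* was at -0.66 at day 21 (adjusted p = 0.0237). *HAS1* had counts in 1 of 27 libraries, and *HYAL4* and *LAYN* had none. The third called gene at day 14 was *BCAN*, brevican, a proteoglycan that binds hyaluronan. *BCAN* averaged 1145 CPM with FAKi and 478.3 CPM in DMSO at day 14, a log2 fold change of 1.26 (SE 0.0967, adjusted p = 1.56e-08), and 954.3 against 464.5 CPM on day 21 (log2 fold change 1.09, adjusted p = 0.00666). At day 21 *ITIH4*, a relative of the proteins that attach to hyaluronan in serum, was higher, at 2.67 against 0.976 CPM (log2 fold change 1.504, adjusted p = 0.0244). *STAB1*, a scavenger receptor that takes up hyaluronan, was lower, at 3.09 against 7.64 CPM (log2 fold change -1.26, adjusted p = 0.016). In the mean effect *ITIH2* and *ITIH3* were called at very low levels, with at most 15 and 11 counts in a library. *ITIH3* was below the count filter on each single day. *ITIH2* was tested only at day 14 (log2 fold change 1.096, adjusted p = 0.736). Both passed the filter of the mean effect mainly through FAKi libraries, so these calls are given as a description and are not support for an effect. *ITIH2* averaged 0.213 against 0.0561 CPM (log2 fold change 2.07, adjusted p = 0.0309) and *ITIH3* 0.105 against 0.0281 CPM (log2 fold change 2.71, adjusted p = 0.0462).

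**Figure D5:**
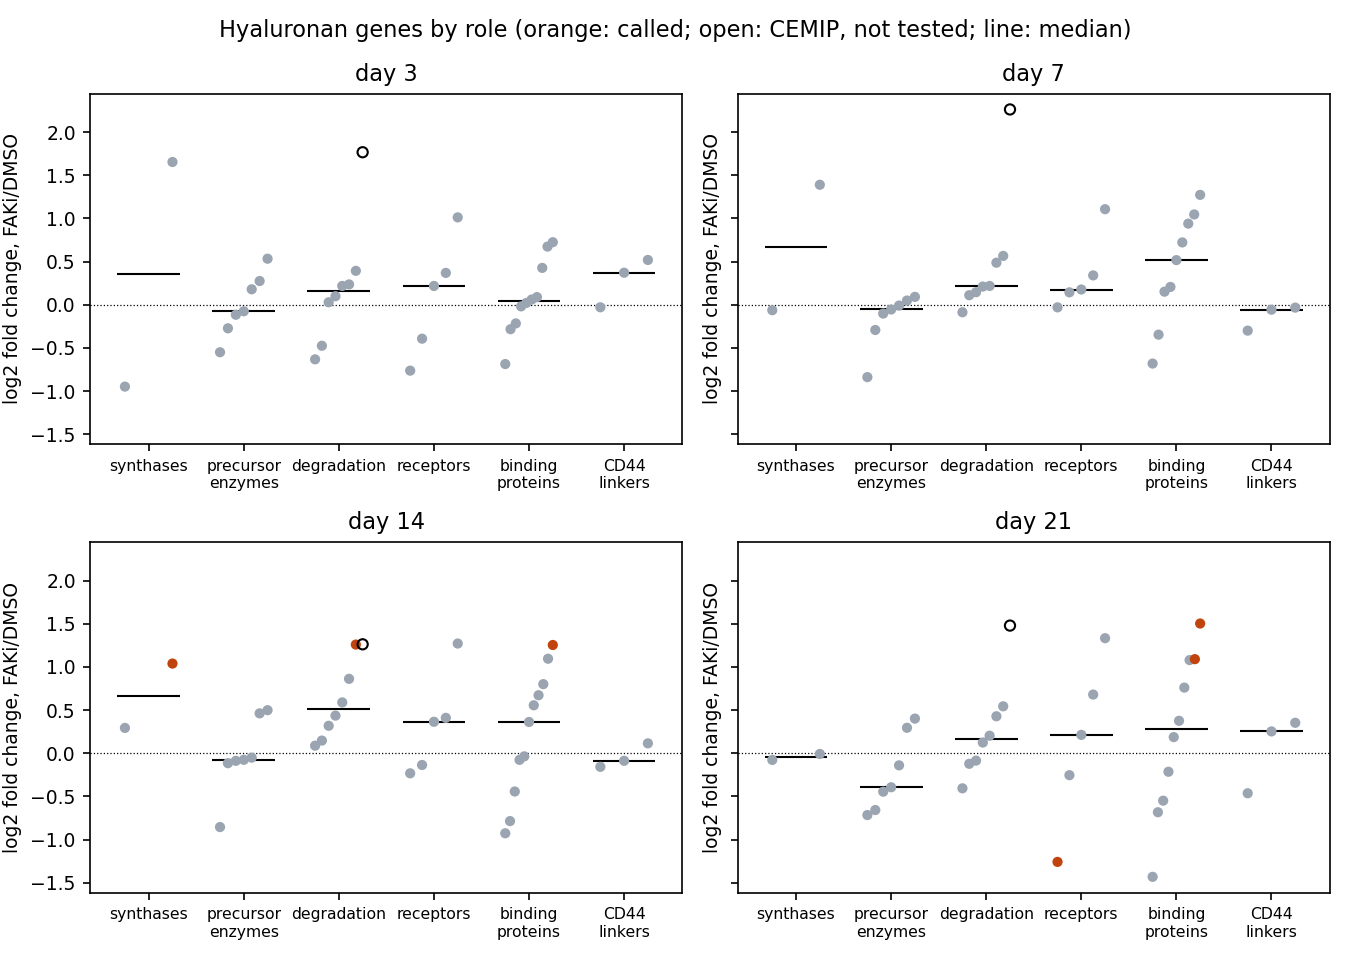
Log2 fold change of FAKi over DMSO for the tested genes of the 51-gene hyaluronan list, by role, on each day; each point is a gene, orange points were called, the open point is *CEMIP*, and the line is the median of the role. The degradation line includes *CEMIP*, and without it the median of that role was 0.10, 0.21, 0.44 and 0.12 on the 4 days. The degrading enzymes other than *CEMIP* were all above 0 at day 14, where *HYAL1* was called. The precursor enzymes had medians below 0 on all 4 days.

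Among the degrading enzymes other than *CEMIP*, 7 were tested at day 14. All of them had a positive log2 fold change. There were 5 with an unadjusted p under 0.05, against 24.6% of all genes, and only *HYAL1* was called, against 0.614% of all genes called higher. The lysosomal enzyme *GUSB*, which clips sugars from the ends of hyaluronan fragments, was at 56.1 CPM with FAKi against 41.4 CPM in DMSO, a log2 fold change of 0.44 (adjusted p = 0.0146 by edgeR), below the fold threshold.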

How the data were processed

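RNA from 27 libraries of 92.1 cells was sequenced with a stranded poly(A) kit. The authors trimmed reads with Trim Galore, checked them with FastQC 0.11.8, aligned them to hg38 with STAR 2.5.3a and counted exon reads per gene with HOMER (GENCODE 39, 1 transcript per gene), and deposited raw counts. The strand setting and the treatment of multi-mapped reads are not given in the sources used here. The table listed 61533 genes, 17687 of them at 0 throughout. The column of DMSO day 21 replicate 3 carried an extra digit in its day and was matched by its title. This library also had the largest mean distance from its own group.

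Genes with at least 20 counts over the libraries of a fit were tested with edgeR 4.0.16 (R 4.3.3): TMM scaling, the quasi-likelihood F test and Benjamini-Hochberg adjustment over all genes tested. The DMSO and FAKi libraries of each day were fitted alone, the mean effect on 24 libraries and its changes on 12. Genes were called where the adjusted p did not exceed 0.05 and the log2 fold change was above 1 in size. *CEMIP* was left out of all counts of calls. Alternatives were DESeq2 1.42.0, other scalings and filters, all libraries together, no fold threshold, a replicate block and leaving out each library. The scripts were first tested on simulated data. The members and gene lists were chosen with earlier results of these data known. Named genes were the 8 members, genes of the 51-gene list called with FAKi, and the 5 genes with the highest Pearson r with *CEMIP* on log2 CPM. *UGDH*, *UAP1*, *GFPT2*, *UGP2*, *GUSB* and genes that overlap members were named after their values were seen. Some genes that these rules select are not reported here.

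Replicate numbers were checked by the correlation of same-numbered deviations from the group means over genes with at least 10 counts in each library. At day 21 r was 0.42, 0.159 and 0.634, all above 0.1, so the numbers were taken to pair the FAKi and DMSO libraries of that day. In the other comparisons at least 1 pair was not above 0.1. Promoter windows are from RefSeq (GRCh38.p14), in which 7 of the 8 genes matched.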

Additional observations from a re-analysis of the deposited data

Results flagged for a closer look

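The FAKi effect on *HYAL3* had opposite signs at different times, with every library of 1 day moving one way and every library of the other day the opposite way. It was -0.6325 on the log2 scale at day 3 and 0.5896 at day 14, and the difference of 1.229 passed edgeR's test (adjusted p = 0.0307). The same difference for *HYAL1* was 1.049 (adjusted p = 0.0424). Both differences were tested after the data were seen. *CD44* was above DMSO in every FAKi library at day 3 (0.2181), day 7 (0.1443) and day 21 (0.2133) and below it at day 14 (-0.2322). The differences between days 3 and 14 and between days 14 and 21 did not pass edgeR's test (adjusted p = 0.0904 and 0.0733), and the difference between days 7 and 14 was not tested.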

How the results depend on the processing

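No result changed sign while called. At day 3, 1 of the 7 genes (*HAS2*) was called with no count filter, with DESeq2 and with all 27 libraries in 1 fit, against 0, and leaving out a library gave 0 to 2. At day 14, 1 was called (*HYAL1*) with all 27 libraries in 1 fit, against 2, and leaving out a library gave 1 to 2. Leaving out a library gave 0 to 1 at day 21, where the count was 0, 0 to 1 for DMSO day 3 against day 0, 1 to 2 for DMSO day 21 against day 0, 0 to 1 for the mean effect, 0 to 2 for its change between days 3 and 21 and 0 to 2 for that between days 3 and 14. Without a fold threshold the count was 1 for DMSO day 7, 2 for DMSO day 14 and 3 for the mean effect, and it went from 2 to 3 for FAKi at day 14 (with *CEMIP2*) and for the change between days 3 and 14 (with *HYAL2*). DMSO day 3 replicate 1 gave the 2 calls of day 3 when left out (*HAS2* and *HAS3*), and those of the change between days 3 and 21.

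With the replicate block, 1 gene was called in the mean effect (*HAS2*, 1.003, adjusted p = 0.013 by edgeR), against 0, and 1 in the change between days 3 and 14 (*HYAL3*), against 2. The block changed no call of the 7 at day 21, the day on which the numbers pair the libraries, and no other count. Leaving out mitochondrial genes, an alternative chosen after seeing the data, changed no call at day 14. *CEMIP*, *HAS2* and *HAS1* had few counts, so small differences in them were not detectable at this depth.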
